A study of Drosophila melanogaster with 9 samples.

Results

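The direct difference between 2 mutants of one repressor pathway was measured across all genes: 3 libraries labelled L(3)mbt mutant against 3 labelled Lint-O mutant, 6 of the 9 RNA-seq libraries of the series. The remaining 3, labelled yw, are the control to which the levels of both mutants are referred. All were labelled as brains of L3 larvae (final instar) kept at 29 °C for 5 to 6 days after eggs were laid at 25 °C. Per the study's methods, the L(3)mbt mutant carries the temperature-sensitive allele L(3)mbt ts1 from a w stock balanced over TM6b. The Lint-O mutant carries Lint-O KO, a deletion of a single nucleotide in the coding sequence, made with CRISPR-Cas9 on a y1 w1118 background and kept over FM7, Kr>GFP. The yw strain is y1 w1118. If the labels hold, the Lint-O mutant shares its background with yw and the L(3)mbt mutant does not. A difference between the mutants then cannot be told apart from a difference in background. The Lint-O allele is 1 line, and how many brains went into a library was not given in the sources used here.

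L(3)mbt binds chromatin through malignant brain tumour (MBT) repeats and is a subunit of repressor complexes. Flies that lose it form brain tumours and switch on genes that normally work only in germ cells, among them genes for PIWI-interacting RNAs (piRNAs), the small RNAs that silence transposons. Lint-O is the partner protein that the study isolated with L(3)mbt from cultured ovarian somatic cells. Because both proteins act in one repressor, the direct comparison asks for which genes losing one is not equal to losing the other.

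The libraries held 18681293 to 31519287 counts, and every pair of replicates within a group differed beyond sampling noise (chi-square of at least 4.50 per degree of freedom). In a principal component analysis of the 6 mutant libraries, the first component took 63.4% of the variance and separated the mutants. Several marker genes went against the labelled tissue. Markers of ovarian somatic cells were present in every library, with 402.8 to 623 CPM (counts scaled to library size) for tj and 138 to 166 CPM for fs(1)Yb. Of 7 neuroblast markers, dpn, ase, grh and klu stayed under 1 CPM throughout, as did the neuronal genes nSyb, brp, Syt1 and fne and the glial genes repo and gcm. Other neural markers were present, such as elav at 48.0 to 74.1 CPM. The gene piwi had 1379 to 1752.5 CPM over all libraries, yw included, while the study describes Piwi protein as ectopic in larval brains of both mutants. The deposited columns of the yw group are named EGFP, and the study's control siRNA in its cultured ovarian somatic cells was against GFP. The eye pigment transporter gene w, which the w1118 allele disrupts, had 125, 135 and 139.7 normalized counts (read counts divided by a size factor for each library) in the L(3)mbt mutant, against 157, 148 and 139 in the Lint-O mutant and 178, 177 and 161 in yw, and the mutants did not pass the test for it (log2 fold change -0.16, 95% interval -0.47 to 0.16). The study also depleted proteins with siRNA in cultured ovarian somatic cells. The column names and several of these markers go against the label of larval brain, while elav and some other neural markers were present. Whether the columns hold larval brains or such cells was not tested, and the labels alone do not settle it. If they held such cells, the groups labelled as mutants would be knockdowns and the point about strain background would not apply. The labels are therefore used as names only, and nothing here is attributed to a brain cell type. The 4 ovarian somatic markers summed to 629 to 722 CPM in the L(3)mbt mutant, 727 to 793 CPM in the Lint-O mutant and 571 to 809 CPM in yw, and the 7 neuroblast markers to 44.8 to 45.5 CPM in the L(3)mbt mutant, 40.4 to 43.0 CPM in the Lint-O mutant and 39.4 to 46.3 CPM in yw. Most of the ovarian somatic sum was tj alone, and most of the neuroblast sum was insc alone. Between the mutants insc was higher and wor lower in the L(3)mbt mutant, so the similar neuroblast sums held opposite changes. In bulk RNA, fewer cells of a type and less RNA per cell cannot be told apart.

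Each mutant was lowest in the transcript of its own mutated gene. The l(3)mbt gene (chr3R:27266326-27273273, dm6) had 1733, 1909 and 1744 normalized counts in the L(3)mbt mutant, against 3896, 4352 and 4418 in the Lint-O mutant and 2914, 3326 and 3371 in yw. The log2 fold change of the L(3)mbt mutant over the Lint-O mutant was -1.23 ± 0.07 (SE). Here and below the test was DESeq2's, with Benjamini-Hochberg adjustment over all tested genes, and a positive log2 fold change means a higher level in the L(3)mbt mutant. Lint-O (chrX:2698701-2701033) had 580.1, 576 and 572 normalized counts in the L(3)mbt mutant, against 88.8, 79.9 and 83.7 in the Lint-O mutant and 511, 503 and 505 in yw. Its log2 fold change was 2.77 ± 0.13. The RNA level of l(3)mbt was thus above yw in the Lint-O mutant, while that of Lint-O in the L(3)mbt mutant was close to yw. These values do not give protein levels. In cultured ovarian somatic cells depleted of L(3)mbt, the study could hardly detect Lint-O protein although its mRNA was not affected. Depletion of Lint-O there had little effect on L(3)mbt protein.

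Of 9097 genes tested, 1358 (14.9%) differed between the mutants at an adjusted p under 0.01. The L(3)mbt mutant was higher in 839 genes (9.22% of those tested) and lower in 519 (5.71%). The median log2 fold change over all tested genes was 0.0066, so the calls stand against a centre near 0. The 2 sides differed in size: the higher genes had a median log2 fold change of 0.55 and the lower genes one of -0.36. At least 2-fold higher were 243 genes (2.67%), and at least 2-fold lower were 36 (0.396%). At least 4-fold higher were 61 genes, and 2 were at least 4-fold lower. Without L(3)mbt mutant replicate 1 the lower genes numbered 309, and without Lint-O mutant replicate 2 they numbered 313. The higher genes numbered 573 to 874 when any one of the 9 libraries was left out.

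**Figure D1:**
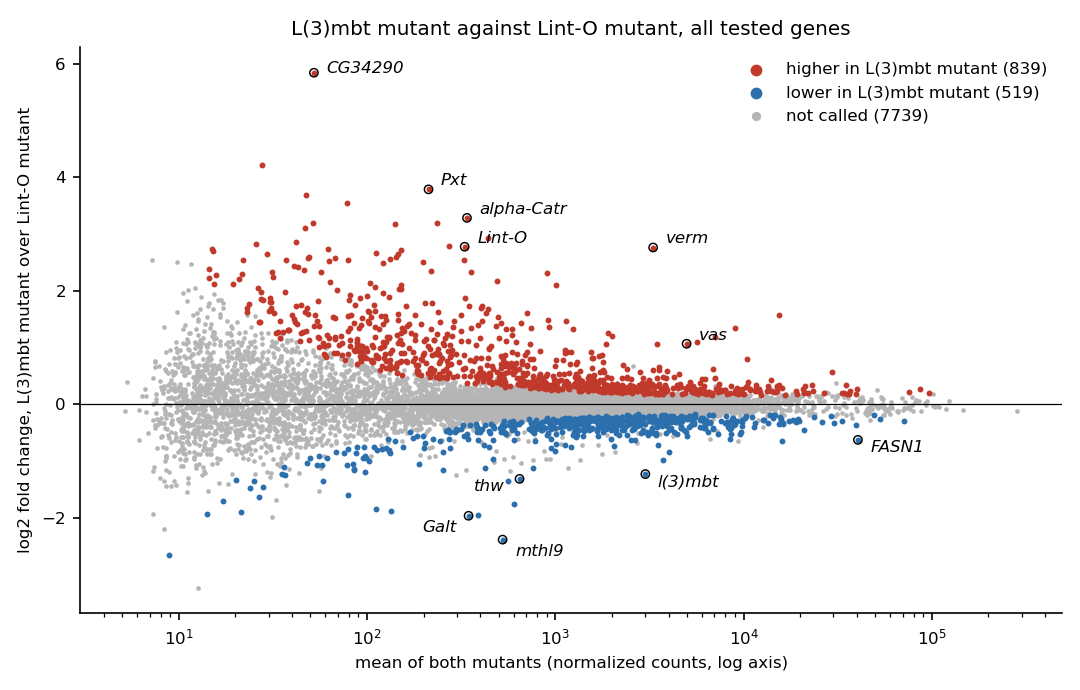
Log2 fold change of the L(3)mbt mutant over the Lint-O mutant (vertical axis) against the mean normalized count of both mutants (horizontal log axis) for the 9097 tested genes, with 839 higher genes in red, 519 lower genes in blue and 7739 genes not called in grey. The red side reaches log2 fold changes above 3 while only 2 blue points lie below -2.

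The level of yw tells the sides apart further. Of the 839 genes higher in the L(3)mbt mutant, yw lay below both mutants in 600 (71.5%), between them in 196 and above both in 43. Among the 243 that were at least 2-fold higher, yw lay below both in 221 (90.9%). Most genes on this side were therefore above yw in both mutants, and further above it in the L(3)mbt mutant. Of the 519 lower genes, yw lay below both mutants in 39, between them in 263 (50.7%) and above both in 41.8%. For the 7739 genes not called, these numbers were 2731, 1566 and 3442. The higher genes also had a lower level in yw, with a median of 333 normalized counts, against 1972 for the lower genes and 786 for all tested genes.

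**Figure D2:**
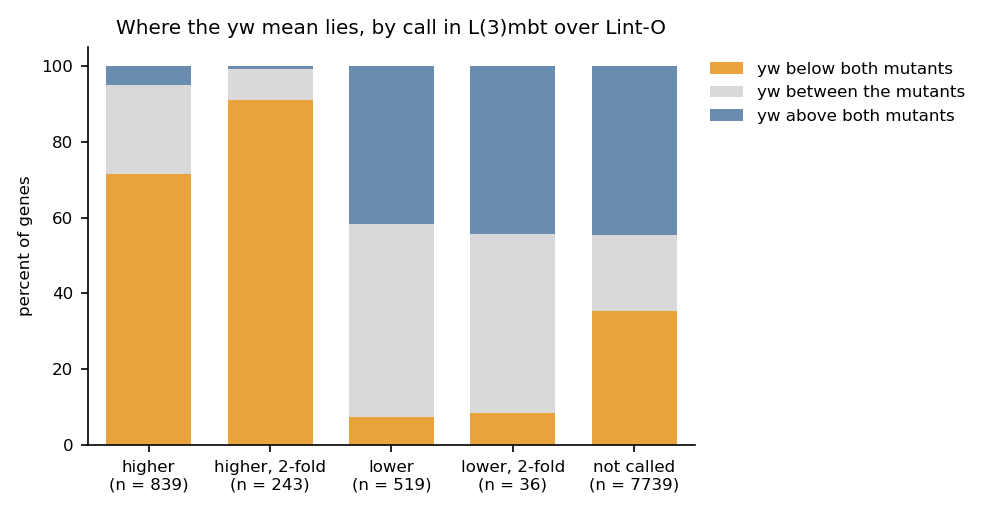
Percent of genes (vertical axis) whose yw mean lies below, between or above the means of both mutants, for genes higher or lower in the L(3)mbt mutant than in the Lint-O mutant, for those at least 2-fold different, and for genes not called. The yw mean is below both mutants for 71.5% of the higher genes and for 7.51% of the lower genes.

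The largest excess in the L(3)mbt mutant was in genes that yw hardly expressed. CG34290 had 107, 95.3 and 105 normalized counts in the L(3)mbt mutant, against 2.93, 0 and 2.46 in the Lint-O mutant and 0 in each yw library. Set against a floor of 3 counts per library, its level in the L(3)mbt mutant was higher by at least 34.2-fold. Pxt, a peroxidase that makes prostaglandin-like signals needed for follicle maturation, had 431, 405 and 351 normalized counts, against 30.2, 26.3 and 29.6 in the Lint-O mutant and none in yw. Its log2 fold change was 3.78 ± 0.22. The yolk protein receptor of the oocyte, yl, had 95.6, 101 and 69.0 normalized counts in the L(3)mbt mutant, against 4.88, 8.41 and 7.39 in the Lint-O mutant and 0, 0 and 2.28 in yw. Both genes are best known from the ovary. In both the Lint-O mutant lay well below the L(3)mbt mutant and above every yw library, and for Pxt it was higher than yw by at least 9.56-fold.

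The other genes of the 12 largest increases showed the same order of groups. The alpha-catenin relative alpha-Catr had 635, 639.7 and 574 normalized counts in the L(3)mbt mutant, against 80.9, 57.8 and 49.3 in the Lint-O mutant and 2.16, 5.82 and 2.28 in yw (log2 fold change 3.28 ± 0.17). ND-15, annotated as a subunit of respiratory complex I, had 92.9, 92.1 and 96.1 normalized counts, against 13.7, 10.5 and 6.16 in the Lint-O mutant and 0 in each yw library (3.19 ± 0.39). In hebe the means were 422 ± 34.8 (SD, n = 3) in the L(3)mbt mutant, against 46.2 ± 7.04 in the Lint-O mutant and 3.35 ± 1.9 in yw. The remaining ones were CG5592, dao, CG9068, CG33003, CG33257 and swaPsi, with log2 fold changes of 2.86 to 4.21 and means of 0 to 1.93 normalized counts in yw. That the mutants did not overlap in these genes was a condition of their choice. The pseudogene swaPsi lies beside swa, from which it was copied, so reads of the pair may have been split between them.

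Several genes for chitin and cuticle are described next, and they were picked after their values were seen for being high, so they say nothing of cuticle genes in general. The chitin deacetylase genes verm and serp, which act in the lumen of tracheal tubes, lie close together on chromosome 3L (chr3L:19690033-19695260 and chr3L:19700977-19708015, dm6). For verm the values were 5624, 5892 and 5781 normalized counts in the L(3)mbt mutant, against 841, 807 and 909 in the Lint-O mutant and 88.4, 62.8 and 60.9 in yw, a log2 fold change of 2.76 ± 0.07. For serp they were 109, 101 and 112, against 22.4, 12.6 and 20.9 in the Lint-O mutant and 5.39, 2.33 and 8.37 in yw (2.52 ± 0.33). The chitin synthase gene kkv (1.39 ± 0.14), the chitin-binding obst-B (2.34 ± 0.19) and the cuticle gene TwdlG (2.55 ± 0.23) were higher as well. In these genes the order was L(3)mbt mutant, Lint-O mutant, yw, with no overlap between groups. The call for obst-E (1.66 ± 0.44) was lost when any library of the L(3)mbt mutant was left out, with log2 fold changes of 1.59 to 1.69, and without Lint-O mutant replicate 1, where it was 1.33. Of the cuticle protein family Cpr, by contrast, 0 of 9 tested members were higher and 2 were lower, and none was lower without L(3)mbt mutant replicate 1 or without Lint-O mutant replicate 2.

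**Figure D3:**
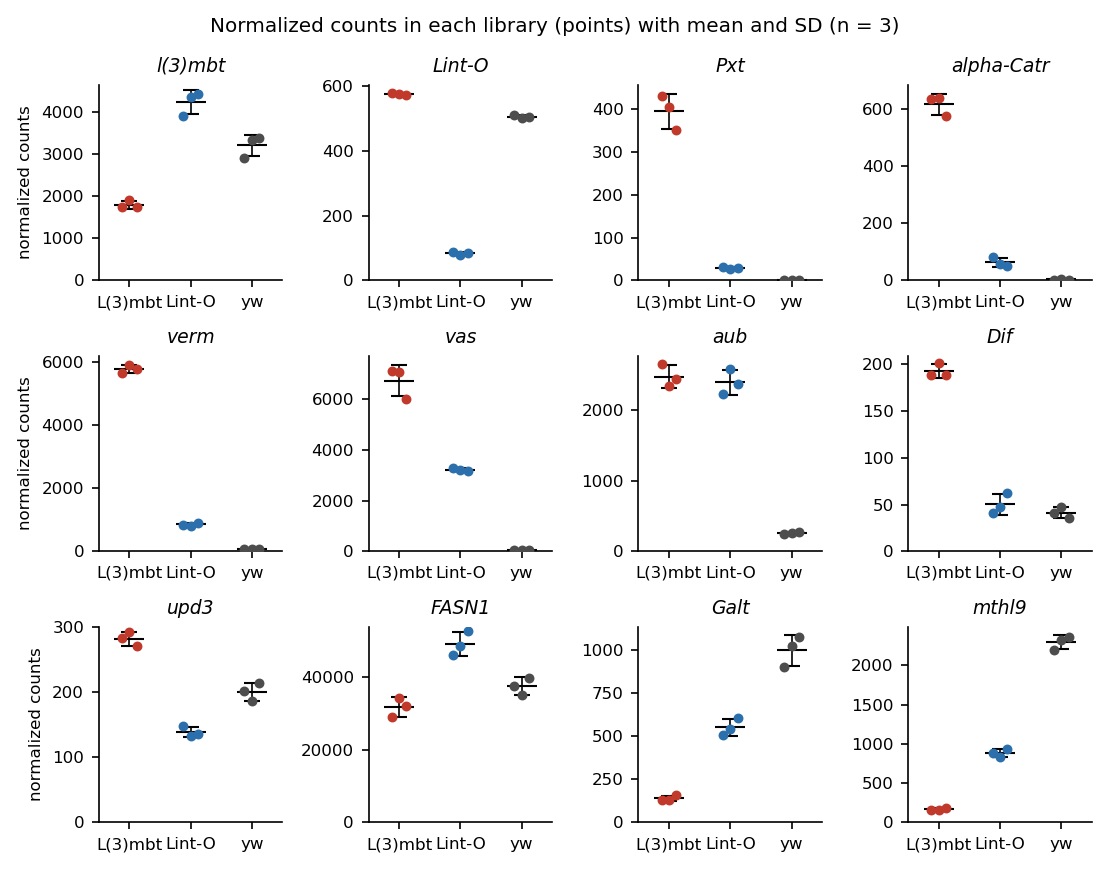
Normalized counts (vertical axes, each from 0) of 12 genes in each library, as points, with the mean and SD of 3 libraries as black bars, for the L(3)mbt mutant, the Lint-O mutant and yw from left to right. The level of Pxt, verm and vas is highest in the L(3)mbt mutant, aub is alike in both mutants, and mthl9 and Galt are lowest in the L(3)mbt mutant.

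Genes of the germline did not differ as a block. Below, each count of list members stands beside a background of 9.22% of all tested genes called higher and 5.71% called lower, together 14.9%. Of 16 tested genes for piRNA production in the nuage, the granule around germ cell nuclei where piRNAs are amplified, 31.2% were called. Of these 4 were called higher and 1, the Tudor-domain scaffold gene tud (-0.38 ± 0.07), was called lower, with a median log2 fold change of 0.12 over the list. The RNA helicase gene vas had 7119, 7086 and 6019 normalized counts in the L(3)mbt mutant, against 3273, 3228 and 3176 in the Lint-O mutant and 44.2, 69.8 and 71.6 in yw (1.06 ± 0.07). The Tudor-domain gene tej had 913, 862 and 746 normalized counts, against 366, 339 and 297 in the Lint-O mutant and 31.3, 45.4 and 29.7 in yw (1.33 ± 0.12). Kots was the most unequal, at 92.9, 56.5 and 57.5 normalized counts, against 8.78, 12.6 and 17.2 in the Lint-O mutant (2.44 ± 0.43), and qin was the least (0.35 ± 0.08). The PIWI protein gene aub, in contrast, had 2646, 2333 and 2428 normalized counts, against 2230, 2577 and 2363 in the Lint-O mutant and 246, 255 and 279 in yw. Its log2 fold change was 0.05 ± 0.08, with a 95% interval of -0.10 to 0.20. The mutants overlapped in aub although both stood far above yw, so within one pathway vas and tej were unequal and aub was not measurably so. AGO3, which partners Aub in ping-pong amplification, had 741, 809 and 1009 normalized counts in the L(3)mbt mutant, against 1432, 1161 and 914 in the Lint-O mutant and 329, 371 and 138 in yw. Its interval of -1.20 to 0.30 covers differences in both directions.

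Of 7 tested genes of the synaptonemal complex and meiotic cohesion, 5 were higher (71.4%) and none was lower, with a median of 0.54. The cohesion gene sunn had 1860, 1789 and 1636 normalized counts in the L(3)mbt mutant, against 686, 757 and 677 in the Lint-O mutant and 234, 239.8 and 212 in yw (1.32 ± 0.09). The synaptonemal gene cona averaged 13291 ± 114 normalized counts in the L(3)mbt mutant, against 7681 ± 310.4 in the Lint-O mutant and 75.0 ± 9.65 in yw (0.79 ± 0.05). The others were corolla (0.54), c(3)G (0.41) and solo (0.76), and the count was 3 without replicate 1 or without replicate 2 of the L(3)mbt mutant. The c(3)G call was also lost without replicate 3 of the Lint-O mutant and with the count test of edgeR. That of solo was also lost without replicate 1 of the Lint-O mutant and when the replicate number was added to the model. Part of solo shares its exons with vas, and such shared sequence may have been left out of the counts. Of 21 tested genes for meiotic recombination and segregation, 3 were higher and none was lower. These were 14.3% of the list, against 14.9% of all tested genes called in either direction and 9.22% called higher.

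Of 20 tested genes for the germ plasm and for translational control in the germline, 8 were higher (40.0%), none was lower and 12 were not called, with a median of 0.38. Among these 8 was Pxt, the peroxidase of follicle maturation described above. The list was chosen with earlier results of these data known, so its share is not an independent result. Besides Pxt the 8 included swa, which places bicoid RNA in the egg. For swa the values were 580.1, 619.8 and 592 normalized counts in the L(3)mbt mutant, against 105, 127 and 123 in the Lint-O mutant and 5.39, 1.16 and 7.61 in yw (2.34 ± 0.14). The translational repressor nanos had 514, 411 and 356 normalized counts, against 152, 152 and 163 in the Lint-O mutant and 1.08, 0 and 7.61 in yw (1.46 ± 0.17). The RNA-binding gene orb averaged 118 ± 8.92 normalized counts (SD, n = 3) in the L(3)mbt mutant, against 40.4 ± 15.1 in the Lint-O mutant (1.55 ± 0.28). The early germ cell gene bgcn (1.37 ± 0.09), and gnu, spir and capu, with 0.63 to 0.90, completed the count. The call of gnu was lost without replicate 1 or 3 of the L(3)mbt mutant or replicate 3 of the Lint-O mutant (0.75 to 0.89), and that of capu without any library of the L(3)mbt mutant, replicate 1 or 2 of the Lint-O mutant or replicate 1 of yw (0.49 to 0.65). The linker histone of germ cells, BigH1, averaged 1087 ± 122 normalized counts in the L(3)mbt mutant, against 568 ± 13.2 in the Lint-O mutant and 4.81 ± 2.89 in yw (0.94 ± 0.11). Of 9 tested genes for spermatogenesis, 2 were higher (1 without L(3)mbt mutant replicate 1), and of the testis copies of proteasome and respiratory chain subunits none of 3 and none of 5 was called. The 9 germline markers summed to 301 to 357 CPM in the L(3)mbt mutant, 162 to 170 CPM in the Lint-O mutant and no more than 13.8 CPM in yw. Most of that sum was vas alone, at 262 to 313 CPM in the L(3)mbt mutant and 138 to 143 CPM in the Lint-O mutant. Besides vas only nanos was called, while bam, osk and bol were not, with bol at 11.5 to 13.2 CPM in the L(3)mbt mutant and 10.3 to 13.7 CPM in the Lint-O mutant. Of the rest, aly, can, Prosalpha6T and Mst87F stayed under 1 CPM in every library. The part of cell composition in these differences was not tested.

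**Figure D4:**
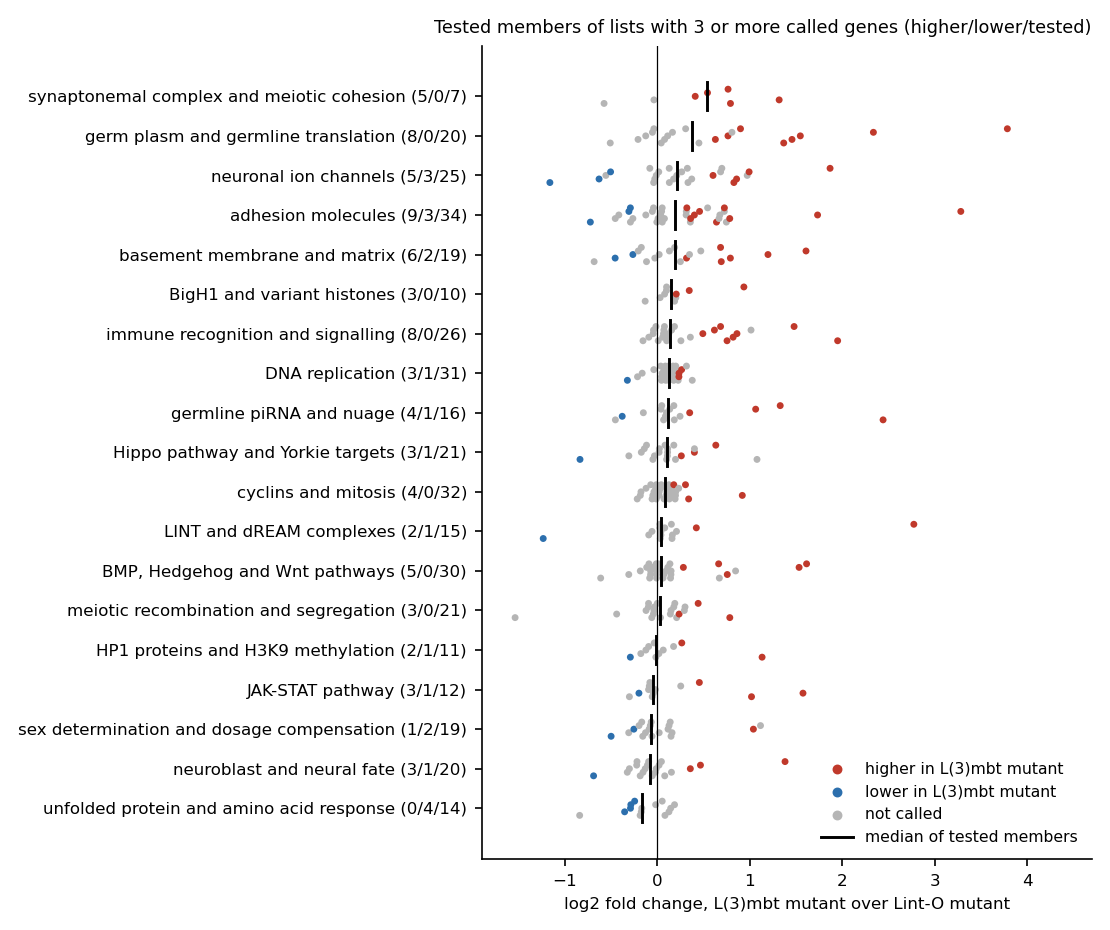
Log2 fold change of the L(3)mbt mutant over the Lint-O mutant (horizontal axis) of every tested member of the 19 gene lists with at least 3 called members, as points, with the list median as a black bar and the numbers higher, lower and tested in brackets. The synaptonemal list has the highest median among these, 0.54, and the unfolded protein and amino acid list holds 4 lower members and no higher one.

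Of 26 tested genes for immune recognition and signalling, 8 were higher (30.8%, against 9.22% of all genes) and none was lower, although the list median was 0.14. The NF-kappaB factor gene Dif averaged 193 ± 7.09 normalized counts (SD, n = 3) in the L(3)mbt mutant, against 50.4 ± 11.2 in the Lint-O mutant and 41.5 ± 5.99 in yw (1.95 ± 0.22). In Dif the Lint-O mutant overlapped yw. The receptor gene PGRP-SA, which senses bacterial peptidoglycan for the Toll pathway, averaged 214 ± 12.8 normalized counts in the L(3)mbt mutant, against 76.6 ± 9.42 in the Lint-O mutant and 19.1 ± 11.6 in yw (1.48 ± 0.22). The tumour necrosis factor receptor wgn (0.86 ± 0.10) and the stress-induced factor Ets21C (0.82 ± 0.09) followed. The list of antimicrobial and stress-induced peptides did not go the same way, but only 5 of its 27 genes were tested. None of these was higher. The antimicrobial peptide gene CecA1 was lower at 59.2, 59.7 and 58.3 normalized counts, against 151, 130.4 and 123 in the Lint-O mutant (-1.20 ± 0.21).

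Single ligands of 3 pathways also differed, while the medians of the JAK-STAT list (-0.05) and of the BMP, Hedgehog and Wnt list (0.04) were near 0. The JAK-STAT cytokine gene upd3 had 282, 292 and 270.3 normalized counts in the L(3)mbt mutant, against 148, 132 and 135 in the Lint-O mutant and 202, 186 and 214 in yw (1.02 ± 0.14). Its neighbour upd2 had 61.0, 61.8 and 57.5, against 27.3, 21.0 and 11.1 in the Lint-O mutant and 59.3, 48.9 and 73.8 in yw (1.57 ± 0.33). For upd2 the L(3)mbt mutant overlapped yw and the Lint-O mutant lay below. Socs36E, a target and feedback inhibitor of the pathway, showed the same order, at 4004 ± 237 normalized counts in the L(3)mbt mutant, against 2922 ± 15.8 in the Lint-O mutant and 3979 ± 363 in yw (0.45 ± 0.07). Of 12 tested genes of the pathway (33.3% called), 3 were higher and 1, Stat92E at -0.20 ± 0.06, was lower. The Stat92E call was lost without replicate 1 or 2 of either mutant, with log2 fold changes of -0.21 to -0.16, and with a correction for exon length (-0.15). Of 30 tested genes of the BMP, Hedgehog and Wnt pathways, 5 were higher and none was lower. These were 16.7% of the list, against 14.9% of all tested genes called in either direction and 9.22% called higher. Among them were Wnt4 (1.53 ± 0.29), Wnt6 (0.76 ± 0.15) and Wnt2 (0.66 ± 0.09). The BMP ligand dpp averaged 48.3 ± 16.0 normalized counts (SD, n = 3) in the L(3)mbt mutant, against 15.7 ± 0.903 in the Lint-O mutant (1.61 ± 0.39). Without L(3)mbt mutant replicate 2 dpp was at 1.37 and no longer called. The activin ligand Actbeta, named after its values were seen, had 445, 483 and 505 normalized counts, against 70.2, 66.2 and 72.7 in the Lint-O mutant and 4.31, 1.16 and 3.04 in yw (2.78 ± 0.17).

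The partners of the mutated proteins differed little. The list of the LINT and dREAM complexes, the repressors that hold L(3)mbt, also held Lint-O, which the study does not place in either complex. Of its 15 tested genes, those called were the mutated genes Lint-O and l(3)mbt, and mip120, a DNA-binding dREAM subunit. For mip120 the values were 2003, 2022 and 1914 normalized counts in the L(3)mbt mutant, against 1438, 1482 and 1513 in the Lint-O mutant and 1523, 1532 and 1560 in yw (0.42 ± 0.06), so the Lint-O mutant lay close to yw. Of 19 tested Polycomb group genes 1 was called, Psc (-0.41 ± 0.09). Among 11 genes of heterochromatin, HP1D3csd (1.13 ± 0.17) and the gene of HP1a (0.26) were higher and Su(var)2-HP2 was lower (-0.29). The call of the HP1a gene was lost without replicate 1 of the L(3)mbt mutant or replicate 3 of the Lint-O mutant (0.22 to 0.23). That of Su(var)2-HP2 was lost without replicate 1 or 3 of the L(3)mbt mutant or replicate 2 of the Lint-O mutant (-0.28 to -0.24), and with a correction for exon length (-0.16). In the somatic Piwi pathway, which works in ovarian follicle cells, 1 gene of 14 was higher and 1 lower (14.3%, near the background). The lower one, SoYb, had 2769, 2657 and 2881 normalized counts in the L(3)mbt mutant, against 3657, 3914 and 3636 in the Lint-O mutant and 3446, 3566 and 3023 in yw (-0.43 ± 0.07). The higher one, piwi (0.18 ± 0.05), was no longer called without replicate 1 or 2 of the L(3)mbt mutant, any replicate of the Lint-O mutant or replicate 2 of yw (0.15 to 0.19). Of 7 genes of the Rhino complex, which licenses piRNA clusters in germ cells, Boot was higher, at 459.9, 511 and 445 normalized counts, against 167, 178 and 131 in the Lint-O mutant and 57.1, 60.5 and 54.0 in yw (1.57 ± 0.14), and so was ctp (0.22).

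Genes of proliferation and growth control were called in shares near the 14.9% of all tested genes, at 12.9% for DNA replication, 12.5% for cyclins and mitosis and 19.0% for the Hippo pathway. Of 31 tested DNA replication genes 3 were higher and 1 lower, and of 32 genes for cyclins and mitosis 4 were higher and none was lower, none of them by more than 0.34 on the log2 scale apart from CycJ. Of 21 genes of the Hippo pathway and its targets 3 were higher, led by the Golgi kinase gene fj (0.63 ± 0.12), and 1, the cadherin gene ft, was lower (-0.84 ± 0.24). The ft call was lost without any replicate of the L(3)mbt mutant and without replicate 2 or 3 of the Lint-O mutant (-0.88 to -0.73), and with a correction for exon length (-0.66). The EGF receptor effector gene pnt was higher (0.51 ± 0.10), with means of 499.5 ± 20.7 normalized counts in the L(3)mbt mutant, against 351 ± 18.0 in the Lint-O mutant and 425 ± 14.8 in yw (SD, n = 3 each). In pnt all libraries of the L(3)mbt mutant were above yw and all of the Lint-O mutant below it. Without Lint-O mutant replicate 1 the higher genes numbered 1 in the replication list and 1 in the Hippo list, and those of cyclins and mitosis numbered 2 without replicate 1 or 2 of the L(3)mbt mutant or replicate 2 of the Lint-O mutant.

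Among genes of the basement membrane and matrix, 6 of 19 tested were higher and 2 were lower (42.1% called). The 2 chains of type IV collagen, which lie head to head on chromosome 2L, were both higher. Col4a1 had 2696, 2927 and 2697 normalized counts in the L(3)mbt mutant, against 1113, 1128 and 1395 in the Lint-O mutant and 454, 552 and 515 in yw (1.20 ± 0.09). For vkg the values were 647, 686 and 663, against 342, 397 and 417 in the Lint-O mutant and 196, 189 and 179.7 in yw (0.79 ± 0.11). The matrix metalloproteinase gene Mmp2 had 1086, 1089 and 1036 normalized counts, against 352, 345 and 357 in the Lint-O mutant and 81.9, 76.8 and 98.2 in yw (1.61 ± 0.10). The lower members were the laminin chains LanA (-0.46 ± 0.06) and LanB1 (-0.26 ± 0.06). The other laminin alpha chain, wb, was on the higher side (0.69 ± 0.20), but its call was lost when any library of either mutant was left out (0.57 to 0.77).

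Of 34 tested adhesion genes, 9 were higher and 3 were lower (35.3% called, against 14.9% of all tested genes). After alpha-Catr, the largest increase was in sns, a cell fusion receptor of myoblasts, at 239, 273 and 233 normalized counts, against 63.4, 79.9 and 81.3 in the Lint-O mutant (1.73 ± 0.20). The integrin gene scb was 0.78 ± 0.08 higher on the log2 scale. Fas3, itself a marker of ovarian somatic cells, was 0.72 ± 0.10 higher, while its fellow marker tj was not called (-0.28 ± 0.17). The largest decrease was in the adhesion gene Fas2, at 2671, 2742 and 2542 normalized counts, against 4352, 4608 and 4177 in the Lint-O mutant (-0.72 ± 0.06). The lower adhesion genes numbered 1 without L(3)mbt mutant replicate 1 or 3 or without Lint-O mutant replicate 2, and 5 without yw replicate 3. Of 12 tested members of the dpr family of neuronal surface receptors 3 were higher (25.0%) and none was lower, with dpr16 (1.85 ± 0.43) and dpr18 (1.75 ± 0.26) leading. Without Lint-O mutant replicate 2 dpr16 was at 1.59 and no longer called. Ion channel genes went both ways, with 5 of 25 tested higher and 3 lower (32.0% called). The acetylcholine receptor subunit nAChRalpha3 had 569, 572 and 419.9 normalized counts in the L(3)mbt mutant, against 169, 139.8 and 117 in the Lint-O mutant (1.87 ± 0.18), whereas nAChRalpha1 had 159, 171 and 142 in the L(3)mbt mutant, against 341, 353 and 359.6 in the Lint-O mutant (-1.16 ± 0.14). Without replicate 1 or 2 of the L(3)mbt mutant, or replicate 2 or 3 of the Lint-O mutant, 3 channel genes were higher.

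On the lower side, several of the largest differences were in genes that were highest in yw. The receptor gene mthl9 had 158, 157 and 188 normalized counts in the L(3)mbt mutant, against 879, 832 and 937 in the Lint-O mutant and 2196, 2322 and 2367 in yw (-2.39 ± 0.10). Its relative mth (methuselah), a G protein-coupled receptor whose loss extends lifespan, had 168, 161 and 149, against 633, 612 and 599.7 in the Lint-O mutant and 959, 996 and 950.0 in yw (-1.95 ± 0.10). The pair lies close together on chromosome 3L (chr3L:329822-332309 and chr3L:343378-346957). In both the L(3)mbt mutant was lowest, the Lint-O mutant was between and yw was highest, with no overlap between groups. Of 11 tested genes of this family, 2 were lower and 2, mthl7 (0.80 ± 0.17) and mthl5 (0.33 ± 0.09), were higher. The mthl5 call was lost without replicate 1 or 3 of the L(3)mbt mutant or replicate 1 or 2 of the Lint-O mutant (0.32 to 0.34).

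Galt, an enzyme of galactose breakdown, had 131, 133 and 157 normalized counts in the L(3)mbt mutant, against 509, 544 and 603 in the Lint-O mutant and 901, 1023 and 1075 in yw (-1.97 ± 0.12). The kinase of that pathway, Galk, was not called, with an interval of -0.15 to 0.13. The secreted protease gene flz, which shapes the cuticle of the trachea, had 259, 304 and 269 normalized counts, against 837, 878 and 1092 in the Lint-O mutant and 1108, 933 and 1023 in yw (-1.76 ± 0.11). In flz the Lint-O mutant overlapped yw. The zona pellucida domain gene thw averaged 370.1 ± 30.5 normalized counts in the L(3)mbt mutant, against 921 ± 69.1 in the Lint-O mutant and 2134 ± 68.3 in yw (-1.32 ± 0.09). CG40298 was the reverse case, with a mean of 47.9 ± 24.9 normalized counts (SD, n = 3) in the L(3)mbt mutant, against 175 ± 35.1 in the Lint-O mutant and 16.7 ± 6.07 in yw, so the Lint-O mutant was the high group. For CG6299 (-1.89 ± 0.18), 89.7% of the exon length is shared with another gene and may have been left out of the counts.

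The other 4 genes among the 12 largest decreases were less stable. Cpr62Bc (-1.60 ± 0.38), a cuticle protein gene, was lost without replicate 1 of the L(3)mbt mutant (-1.49) or replicate 2 of the Lint-O mutant (-1.42). CR9337 (-1.35 ± 0.35) was lost when replicate 1 of the L(3)mbt mutant or replicate 1 or 2 of the Lint-O mutant was left out, with values of -1.28 to -1.13. CG44329 (-1.24 ± 0.35) was lost without replicate 1 or 3 of the L(3)mbt mutant or replicate 1 or 2 of the Lint-O mutant, with values of -1.19 to -1.09. CG43968 (-1.35 ± 0.41) was lost without replicate 1 or 2 of the L(3)mbt mutant or any replicate of the Lint-O mutant, with values of -1.47 to -1.23. In yw, CG43968 had 1346 and 1249 normalized counts in replicates 1 and 2 and 473 in replicate 3, and AGO3 and CR9337 were also lowest in that library.

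Of 53 tested cytochrome P450 genes, 7 were lower and 2 were higher. Together 17.0% were called, near the 14.9% of all tested genes, but most of these were on the lower side. Over all tested genes 5.71% were lower and 9.22% higher. Cyp6d5 had 2347, 2646 and 2472 normalized counts in the L(3)mbt mutant, against 4918, 5082 and 4828 in the Lint-O mutant and 8106, 7424 and 8624 in yw (-0.99 ± 0.07). Cyp28d1 was the largest on the other side (1.34 ± 0.20). Of 27 tested glutathione transferase genes 3 were higher and 2 lower, with GstS1 at 1.06 ± 0.06 and GstD2 at -0.98 ± 0.13. Of 14 tested genes of the unfolded protein and amino acid response, 4 were lower (28.6%, against 5.71% of all tested genes) and none was higher. These were the translation inhibitor Thor (-0.35 ± 0.06), asparagine synthetase AsnS (-0.29 ± 0.07), the folate enzyme Nmdmc (-0.29 ± 0.07) and the kinase Gcn2 (-0.25 ± 0.07). The Nmdmc call was lost without L(3)mbt mutant replicate 2 (-0.24). The Gcn2 call was lost when replicate 1 or 3 of the L(3)mbt mutant or replicate 2 or 3 of the Lint-O mutant was left out, with values of -0.26 to -0.19, and with a correction for exon length (-0.18).

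In 14 genes the mutants differed from yw in opposite directions, each called against yw. In the L(3)mbt mutant 18.1% of tested genes were higher than yw and 12.6% lower, and in the Lint-O mutant 13.4% were higher and 7.52% lower. Both comparisons use the same yw libraries. Of the 14, 3 were above yw in the L(3)mbt mutant and below it in the Lint-O mutant: upd3, the imaginal disc growth factor gene Idgf3 and FBgn0003888, which the annotation used here does not name. Idgf3 had 4029, 4163 and 3808 normalized counts in the L(3)mbt mutant, against 2655, 2602 and 2609 in the Lint-O mutant and 3144, 3046 and 3379 in yw. FBgn0003888 had 7200, 8152 and 7830, against 3394, 3568 and 3880 in the Lint-O mutant and 4641, 4238 and 4824 in yw. The other 11 were below yw in the L(3)mbt mutant and above it in the Lint-O mutant. Besides l(3)mbt itself they included 3 enzymes of lipid synthesis or acyl transfer. Fatty acid synthase, FASN1, had 28993, 34254 and 32148 normalized counts in the L(3)mbt mutant, against 46220, 48686 and 52812 in the Lint-O mutant and 37725, 35200 and 39882 in yw (-0.63 ± 0.07). Agpat2 had 1234, 1194 and 1153, against 1603, 1648 and 1595 in the Lint-O mutant and 1445, 1343 and 1372 in yw (-0.44 ± 0.07). Acat2 followed the same order (-0.41 ± 0.05). The giant proteins of the set were the titin gene sls (-0.63 ± 0.07), the atypical cadherin gene kug (-0.51 ± 0.07), the ubiquitin ligase gene Bruce (-0.56 ± 0.06) and the talin gene rhea (-0.49 ± 0.07), together with Dscam4 (-0.64 ± 0.07). Cyp12a5 (-0.72 ± 0.07) and CG6178 (-0.50 ± 0.06) completed it. None of these 14 calls in the direct comparison was lost when any single library was left out. Choosing genes for opposite calls against yw makes a direct call nearly certain, so it adds little. The stability of the calls against yw, which define the set, is not given here. One of them was close to the threshold: in CG6178 the Lint-O mutant was above yw at a DESeq2 adjusted p of 0.0098.

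The most abundant called genes on each side differed by small amounts, the largest being that of FASN1 (-0.63 ± 0.07). Leading the higher side were the ribosomal protein gene sta (0.20 ± 0.06), the tubulin gene betaTub56D (0.26 ± 0.06), the chaperone gene Hsp83 (0.21 ± 0.05), the ATP synthase gene ATPsynbeta (0.27 ± 0.06) and the nuclear transport gene Ran (0.17 ± 0.05). Leading the lower side were FASN1, lncRNA:CR42862 (-0.37 ± 0.07) and the ribosomal protein genes RpL5 (-0.31 ± 0.07), RpL36 (-0.27 ± 0.06) and RpL15 (-0.19 ± 0.06). The calls of sta, Hsp83, betaTub56D, Ran and RpL15 were each lost without at least 1 of the mutant libraries. Of 51 tested RpL genes 4 were lower and none was higher. That number was 2 without L(3)mbt mutant replicate 1 or 2 or Lint-O mutant replicate 1 or 3, 13 without L(3)mbt mutant replicate 3, and 7 and 9 without yw replicates 2 and 3. Of 37 tested RpS genes 3 were higher and 3 were lower. The largest difference among them was in RpS5b (1.57 ± 0.06). It averaged 23027 ± 1247 normalized counts in the L(3)mbt mutant, against 7769 ± 402 in the Lint-O mutant and 2063 ± 95.8 in yw (SD, n = 3 each). The calls of RpS10a, RpS14a and RpS14b were each lost without at least 1 of the mutant libraries. Of 12 tested ATP synthase genes 4 were higher, by 0.23 to 0.32 on the log2 scale, and without Lint-O mutant replicate 2 the number was 2. No member was called among 45 tested mitochondrial mRpL genes, 16 Pros, 12 Rpn and 8 Rpt genes of the proteasome, 16 ionotropic receptor (Ir) genes or 13 gustatory receptor (Gr) genes, although 1 mRpL and 1 Pros gene were lower without L(3)mbt mutant replicate 3.

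Exon length went with the lower calls. Lower genes had a median total exon length of 4704 bases, higher genes 2275 and all tested genes 2041. In the longest of 5 classes of protein-coding genes by exon length (4139 to 71820 bases) 16.0% were lower, against 2.96% to 3.91% in the others, whereas the share of higher genes lay between 7.62% and 11.9% in these classes. The genes of the longest class deviated from their mean over all libraries by medians of -0.04, 0.02 and -0.06 (log2) in the L(3)mbt mutant, against -0.0063, 0.09 and 0.06 in the Lint-O mutant and 0.04, 0.0060 and -0.07 in yw. The groups overlapped in that measure, since L(3)mbt mutant replicate 2 was above Lint-O mutant replicate 1, and yw replicate 3 was the lowest of all. With a correction for exon length, chosen after seeing the data, 976 genes were higher and 438 lower, and 821 and 404 of these were among the calls made without it. Of the 28 protein-coding genes of the longest class that were among the genes examined singly and called lower, 20 kept the call under that correction, among them sls (58996 bases), kug, Bruce, rhea, LanA, FASN1, Fas2, Dscam4, tud and nAChRalpha1. The correction ended the calls of the other 8, which were ft, Gcn2, Stat92E, Su(var)2-HP2, ACC, PolE1, Atg2 and vir, with log2 fold changes of -0.66 to -0.15.

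**Figure D5:**
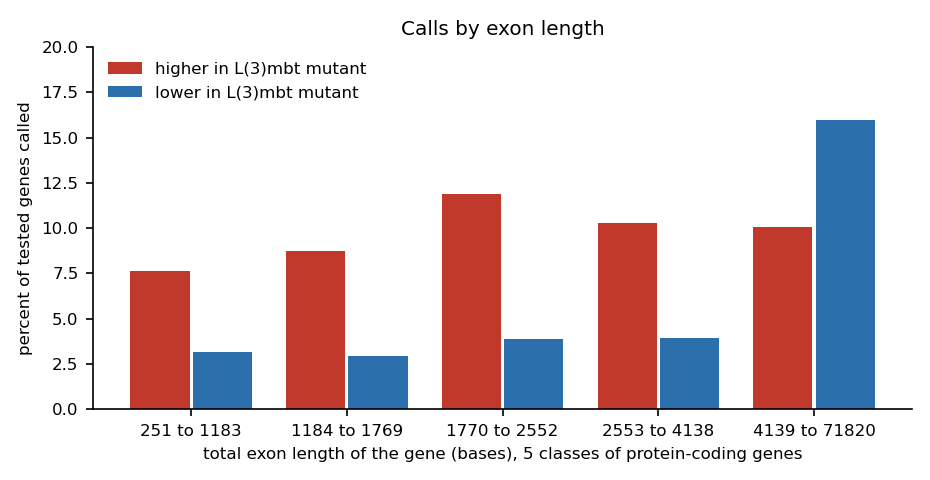
Percent of tested protein-coding genes called higher (red) or lower (blue) in the L(3)mbt mutant than in the Lint-O mutant (vertical axis) in 5 classes of equal gene number by total exon length in bases (horizontal axis). Lower calls reach 16.0% in the longest class and lie between 2.96% and 3.91% in the others.

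By position, the share of tested genes called was 14.8% on 2R, 14.6% on 3L and 15.0% on 3R, the arm of l(3)mbt, and 2L was close to these. On chromosome 4 it was 8.99%, with 3 higher and 5 lower of 89 genes. It was 16.1% on the X chromosome, the chromosome of Lint-O, where 178 genes were higher and 78 lower. Runs of at least 4 neighbouring tested genes called in one direction numbered 3, all higher. One on the X chromosome (chrX:6347103-6365708, dm6) held CG3847, ND-B16.6, kdn, swaPsi and swa. One on chr2L:16400175-16455194 held CG5888 and the growth factor genes Idgf1, Idgf2 and Idgf3, of which Idgf1 (0.40 ± 0.11) was lost without replicate 2 or 3 of the L(3)mbt mutant or replicate 1 or 2 of the Lint-O mutant (0.34 to 0.41). One on chr2L:544925-563819 held Ets21C, rempA, Tspo and uncNacbeta. The call of Tspo, 75.0% of whose exon length is overlapped by other genes, was lost without replicate 1 or 2 of either mutant. In the run on the X chromosome, CG3847 was lost without replicate 2 of the L(3)mbt mutant or replicate 1 or 2 of the Lint-O mutant. ND-B16.6 was lost without replicate 3 of the L(3)mbt mutant. Of 266 tested long noncoding RNAs, 7 were higher and 7 lower, where 2 to 13 were lower when single libraries were left out. Of 125 tested antisense RNAs, 1 was higher and 5 were lower, where the lower ones numbered 2 to 8. These shares were not tested against those of all genes.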

How the data were processed

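RNA was selected for poly-A tails and made into stranded mRNA libraries, and ribosomal RNA reads were set aside, per the labels and the study's methods. The submitters' processing notes name HISAT2, featureCounts and dm6, with versions and strand setting not given in the sources used here. The authors deposited raw read counts for 17611 genes, with 18681293 to 31519287 counts per library. Exon sequence shared by 2 genes of the table may have been left out of the counts, which was not checked here. Of the gene IDs, 17559 took a symbol and position from Ensembl's BDGP6.54 annotation, whose coordinates are those of dm6, and 52 did not.

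Columns were matched to libraries through the labels. Counts were tested with DESeq2 1.42.0 (R 4.3.3) over all 9 libraries with 1 coefficient per group, median-of-ratios size factors and a call at an adjusted p under 0.01, the study's threshold. Nothing in the labels says how the replicates were separated, so p-values measure the spread between these libraries. A floor of 3 counts is 0.0952 to 0.161 CPM, and covers counting error only. Gene lists (33, with symbols matched through synonyms where needed) and symbol families were described by counts and medians without a test of their own, and some listed genes were not analysed here. The members and lists were chosen with earlier results of these data known.

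Genes named are l(3)mbt and Lint-O, the 12 largest changes in each direction among called genes whose mutants do not overlap and whose higher mutant averaged at least 50 normalized counts, the 5 most abundant called genes in each direction, genes called in opposite directions against yw, and up to 4 called members of each list or family and the markers. Others were named after their values were seen: w, aub, AGO3, nanos, Idgf1, upd2, verm, serp, kkv, obst-B, obst-E, TwdlG, Actbeta, Galk and further list members. Alternatives were edgeR 4.0.16, other scalings and filters, a replicate block, each library left out, and 2 alternatives for exon length added after seeing the data. Both count tests were tested on simulated data with 200 changed genes.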

Additional observations from a re-analysis of the deposited data

Results flagged for a closer look

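In groups of 3 libraries, a single library far from the others was not tested for. The 14 results below stand out because the gene was called higher than yw in one mutant and lower than yw in the other. The direct test of the difference between the mutants was passed in each, but this choice of genes makes that nearly certain. Both comparisons with yw use the same 3 yw libraries, and the stability of those calls with libraries left out is not given here.

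In 3 of the genes the L(3)mbt mutant was above yw and the Lint-O mutant below it, with log2 fold changes of the L(3)mbt mutant over the Lint-O mutant of 1.10 for FBgn0003888, 1.02 for the cytokine gene upd3 and 0.61 for the growth factor gene Idgf3.

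In the other 11 the L(3)mbt mutant was below yw and the Lint-O mutant above it. The log2 fold change was -1.23 for l(3)mbt, the gene mutated in one of the groups. It was -0.72 for Cyp12a5, -0.64 for Dscam4, -0.63 for sls, -0.63 for FASN1, -0.56 for Bruce, -0.51 for kug, -0.50 for CG6178, -0.49 for rhea, -0.44 for Agpat2 and -0.41 for Acat2. No cause was tested for any of these.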

How the results depend on the processing

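No gene called with the reported settings was called in the opposite direction under any alternative, and 154 of 234 named called genes passed the threshold in all of them. With a minimum change of 2-fold, the L(3)mbt mutant was higher in 243 genes and lower in 36, against 839 and 519 with no minimum. Without the longest of 5 exon-length classes, an alternative added after seeing the data in which fewer genes are tested by construction, 317 genes were lower. With each library left out in turn, 573 to 874 genes were higher and 309 to 657 lower. The low values of 309 and 313 lower genes came without L(3)mbt mutant replicate 1 and without Lint-O mutant replicate 2, and the high value of 657 without yw replicate 3. The log2 fold change stayed within 2.74 to 2.82 for Lint-O and -1.29 to -1.20 for l(3)mbt. Other scalings moved the median log2 fold change of tested genes by little, to -0.01 with TMM factors and 0.01 with total counts, but TMM factors changed the counts to 738 higher and 622 lower and so moved the share of higher calls to 54.3% from 61.8%. A fit of the 6 mutant libraries gave 792 higher and 701 lower genes, and edgeR's quasi-likelihood test gave 690 and 473. The replicate numbers of the labels did not pair the libraries: same-numbered libraries of the mutants correlated at -0.0090 to 0.030 in their deviations from group means, and 3 of 6 mutant libraries correlated best with their own number. With a replicate block, 745 genes were higher and 512 lower, nanos (1.49) was no longer called, and the lower RpL genes numbered 14, against 4 without the block. Depth sets the limit for genes near the floor of 3 counts, and 4772 genes with a count were not given an adjusted p.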

Other observations

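Some further genes, chosen after their values were seen, also differed between the mutants. Dopa decarboxylase, Ddc, which makes dopamine and serotonin and serves cuticle hardening, had 984, 1014 and 984 normalized counts in the L(3)mbt mutant, against 488, 468 and 468 in the Lint-O mutant and 123, 98.9 and 119 in yw (DESeq2 log2 fold change 1.07 ± 0.09). The cyclin gene CycJ had 1687, 1588 and 1466, against 832, 835 and 841 in the Lint-O mutant and 319, 270.0 and 311 in yw (0.92 ± 0.08). The vesicle transport gene Rab32 averaged 586 ± 14.7 normalized counts in the L(3)mbt mutant, against 302 ± 33.5 in the Lint-O mutant and 131 ± 24.8 in yw (SD, n = 3 each).

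In the dosage compensation gene msl-2 the order was the other way, at 339.7, 344 and 311 normalized counts in the L(3)mbt mutant, against 453, 512 and 441 in the Lint-O mutant and 720.0, 654 and 605 in yw (-0.50 ± 0.11). The neuroblast genes did not move together. The zinc finger gene wor was lower in the L(3)mbt mutant (-0.69 ± 0.13), while insc (0.47 ± 0.09) and the temporal factor gene cas (1.38 ± 0.31) were higher. The body pigment gene y had 285, 354 and 259.6 normalized counts in the L(3)mbt mutant, against 178, 183 and 182 in the Lint-O mutant and 336, 294 and 331 in yw (0.72 ± 0.14), so the L(3)mbt mutant overlapped yw.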
